A study of Nicotiana tabacum with 12 samples.

Results

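Heat shock proteins and the factors that switch on their genes were followed in seedling leaves of tobacco (Nicotiana tabacum), across 2 wild types and 2 engineered lines. Members were the genes whose deposited description, a string of protein domain names, contained heat shock, Hsp20, Hsp70, Hsp90 or alpha crystallin. These terms matched 343 of 69500 genes, and 41 of them were left out because they also named DnaJ, the co-chaperone domain of Hsp40, which left 302 members. Of these, 32 were at 0 in every library, another 70 were too low to test, and 200 (66.2%) reached a level of 1 TPM, a transcript share corrected for gene length, in at least 3 libraries, against 44.7% of all genes. Of the tested members, 6 would not have passed without the libraries of 1 group, and a difference that involves that group is given for them as a description, with no test.

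The RNA came from 4 groups of 3 libraries each, all from leaf: wild type KY, wild type K326, the knockout Q18 and the overexpression line YOE. The study asked how NtCISZOG, a glucosyltransferase of the cytokinin cis-zeatin, affects leaf chlorophyll, and no heat treatment is given in the labels. Its design text names the lines K326-gk-8 and KY-OE-31, so K326 was taken as the reference of Q18 and KY as the reference of YOE. The labels give neither the background of Q18 and YOE, nor the promoter or construct, nor the age of the plants, nor whether a line is 1 clone or replicates were separate plants. P-values therefore measure only the spread between these libraries, which may be technical. No description names zeatin, so the level of NtCISZOG itself was not checked, and Q18 and YOE stand for the libraries labelled so.

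Heat shock proteins are chaperones, and many of them are also present in unstressed leaves. Small heat shock proteins hold unfolding proteins in a soluble state, Hsp70 binds and releases exposed stretches of a protein chain at the cost of ATP, and Hsp90 acts late in the folding of kinases, receptors and other client proteins. Heat shock factors bind heat shock elements in promoters and switch these genes on, while class B factors of plants mostly repress. Tobacco is an allotetraploid, so many of these genes exist as near-identical copies from both ancestral genomes. Reads shared between such copies make the value of a single copy uncertain.

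The domain names divided the members into 94 small heat shock proteins with an alpha crystallin domain, 70 Hsp70 genes, 21 Hsp90 genes, 55 heat shock factors and smaller sets. The smaller sets held 26 proteins with a CS domain of the p23 and SGT1 type, 9 chaperonin-binding proteins (most with a tetratricopeptide repeat), 8 Rad23 proteins, 6 Hsp90 ATPase activators, 6 ubiquilins, 4 binding proteins of heat shock factors and 3 genes with an Hsp20-like fold only. Rad23 and ubiquilin carry ubiquitin to the proteasome and were matched by the name of a domain they share with heat shock chaperonin-binding proteins. In the gene numbering, 74 members shared an identifier prefix with another member, and 19 of the 23 pairs with consecutive numbers belonged to the same class. These counts were not compared with those of other genes.

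The listed TPM values summed to between 334759 and 676862 per library, so libraries were brought to a common scale by the median of their ratios to the mean library, taken over 20130 genes detected throughout, and levels are given below as scaled TPM. The factors ran from 0.516 in YOE replicate 2 to 1.509 in Q18 replicate 2. This scaling moved the median log2 difference over all genes from 0.24 to 0.02 for Q18 minus K326, from -0.11 to -0.01 for YOE minus KY, from 0.39 to 0.02 for K326 minus KY and from -0.51 to -0.02 for YOE minus K326. Calls are limma tests on log2(scaled TPM + 1) with a Benjamini-Hochberg adjusted p under 0.05 over the 31064 genes tested, and log2 changes are on that scale, where the added 1 shrinks the change of genes with low values. Errors beside log2 changes are standard errors (SE), and errors beside means are SD with n = 3. The leaf label fitted the libraries, in that chlorophyll a-b binding and Rubisco small subunit genes summed to 24916.3 scaled TPM or more in each. Across tested genes, YOE libraries correlated at 0.878 with KY and at 0.921 with K326 libraries, so the transgene's effect and a background shared with K326 cannot be told apart in YOE against KY.

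Members made up 0.621 to 1.24% of the listed signal, and the small heat shock proteins were the most abundant class in all but 1 group of libraries. Their summed level was 2028, 2346 and 2517 scaled TPM in KY, 1939, 1639 and 1998 in K326, 2235, 2565 and 2309 in Q18, and 1510, 746 and 2767 in YOE. The YOE libraries thus held both the lowest and the highest sum of the 12. Hsp70 followed with 1764 ± 76.9 scaled TPM in KY, 1505 ± 114 in K326, 1502 ± 80.8 in Q18 and 1750 ± 273 in YOE.

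The sum of Hsp90 was 545, 548 and 532 scaled TPM in KY, 508, 546 and 506 in K326, 505, 498 and 530 in Q18, and 456, 432 and 409 in YOE. All 3 YOE libraries lay below every other library on this scale. As deposited, the mean of YOE was 302 TPM against 419 in KY, 576 in K326 and 679 in Q18. On that scale YOE had the lowest mean of the small heat shock proteins, Hsp70 and heat shock factors as well. The median log2 over all genes was -0.11 for YOE minus KY and -0.51 for YOE minus K326. The deposited order therefore says little about Hsp90 alone. Heat shock factors summed to 230 ± 18 scaled TPM in KY, 192 ± 13.7 in K326, 192 ± 22.5 in Q18 and 174 ± 25.0 in YOE. No test was made of these sums.

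**Figure D1:**
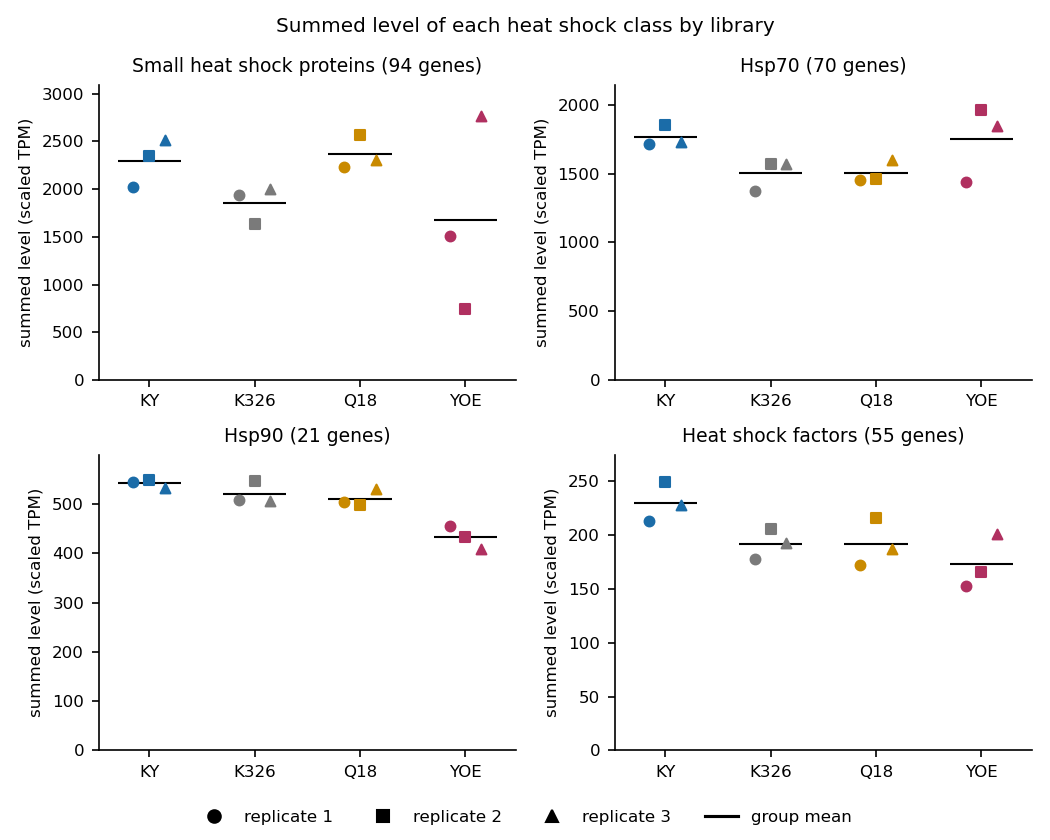
Summed level in scaled TPM (vertical axes, from 0) of the small heat shock proteins, Hsp70, Hsp90 and heat shock factors in the 12 libraries, by group. Points are libraries and lines group means; the small heat shock protein sum of YOE ran from 746 to 2767, while its 3 Hsp90 sums, 409 to 456, lay below all others.

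Few genes carried the small heat shock protein signal: the 4 most abundant held 78.4% of it. Nitab4.5_0003264g0010 stood at 492, 474 and 567 scaled TPM in KY, at 492, 476 and 530 in K326, at 470.0, 611 and 601 in Q18, and at 375, 236 and 778 in YOE. Nitab4.5_0000008g0240 stood at 405, 388 and 498 scaled TPM in KY, at 377, 413 and 369 in K326, at 510.0, 708 and 586 in Q18, and at 271, 102 and 884 in YOE. For both genes YOE replicates 1 and 2 lay below every other library and YOE replicate 3 above them all. Neither was called in YOE against KY (log2 -0.31 ± 0.33, adjusted p = 0.5, and -0.55 ± 0.56, adjusted p = 0.474), but both were called lower without YOE replicate 3, with adjusted p-values of 0.0233 and 0.0130. Their Q18 and K326 libraries did not overlap for the second gene only, and the log2 change of 0.63 ± 0.56 was not called (adjusted p = 0.87).

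The other abundant small heat shock protein genes are given although the rule for naming genes did not select them. Nitab4.5_0000073g0350 stood at 446, 644 and 616 scaled TPM in KY, 342, 273 and 442 in K326, 400, 390 and 264 in Q18, and 274, 65.8 and 334 in YOE. The K326 and Q18 libraries also lay below every KY library, but K326 against KY was not called (log2 -0.70 ± 0.49, adjusted p = 0.326). YOE was called lower than KY (log2 -1.62 ± 0.49, adjusted p = 0.0259). That call was lost as deposited (adjusted p = 0.0970), after quantile normalization, with the 6 compared libraries alone, and without KY replicate 2 or 3 (adjusted p up to 0.0754). Nitab4.5_0002443g0040 stood at 227, 359 and 334 scaled TPM in KY, 273, 152 and 204 in K326, 351, 367 and 361 in Q18, and 210.0, 43.2 and 293 in YOE. The Q18 libraries of this gene lay above the K326 libraries, but no change in it was called with all libraries; without YOE replicate 3, YOE was called lower than KY (adjusted p = 0.0383).

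**Figure D2:**
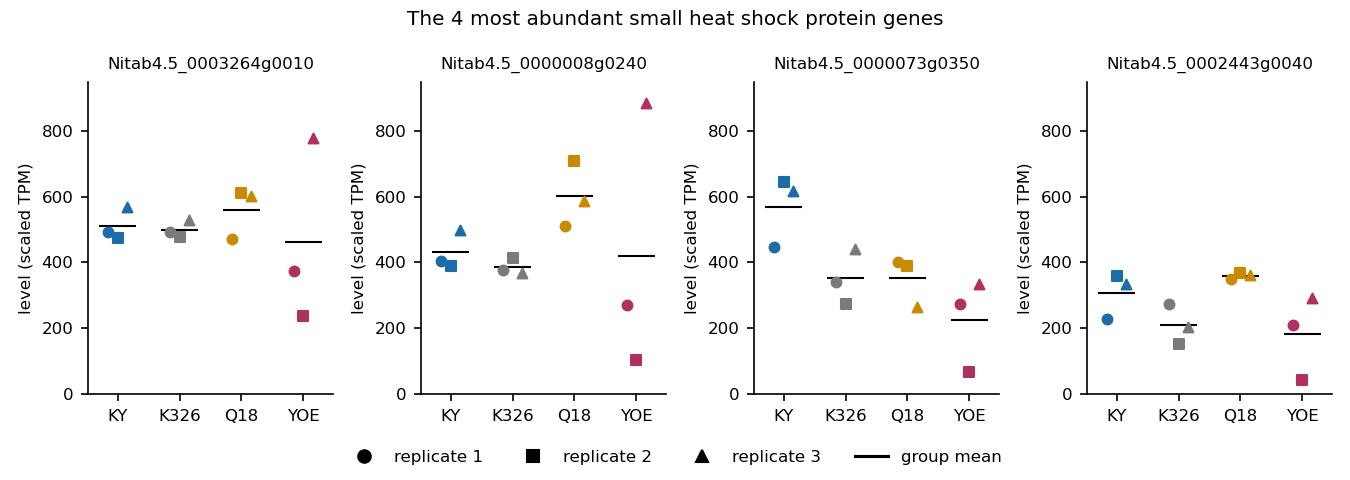
Level in scaled TPM (vertical axes, from 0, same range) of the 4 most abundant small heat shock protein genes in the 12 libraries, by group; points are libraries and lines group means. The 3 YOE libraries spread widest, from 102 to 884 for Nitab4.5_0000008g0240.

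Knockout Q18 against K326 asked what loss of NtCISZOG changed. No member was called in this comparison: 0 of 200 in limma, against 4 of all 31064 genes (0.0129%). At an unadjusted p under 0.05 there were 17 members (8.50%), 13 higher and 4 lower in Q18, against 6.77% of all genes. The count of called members was also 0 in each alternative, including the values as deposited (0.0192% of all genes called), and with each library left out. Log2 changes of the members ran from -0.86 to 1.16 with a median of 0.06, and 5 members differed by at least 2-fold on this scale.

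The smallest p belonged to the heat shock factor Nitab4.5_0006852g0070. Its level was 7.32, 9.04 and 7.26 scaled TPM in Q18 against 2.91, 3.18 and 3.32 in K326, 2.14, 1.34 and 1.59 in KY, and 1.41, 1.01 and 1.99 in YOE. Every Q18 library was above every other library, but the log2 change of 1.10 ± 0.16 against K326 had an adjusted p of 0.106 and was not called. Next came Hsp70 gene Nitab4.5_0001800g0020, with 24.2, 28.9 and 23.7 scaled TPM in Q18 against 10.9, 10.6 and 15.5 in K326 (log2 1.01 ± 0.22, adjusted p = 0.27). Hsp70 gene Nitab4.5_0005133g0020 had 30.8, 39.9 and 35.7 scaled TPM in Q18 against 20.7, 18.6 and 22.7 in K326 (log2 0.75 ± 0.23, adjusted p = 0.48). In both Hsp70 genes the groups did not overlap.

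A further small heat shock protein gene, Nitab4.5_0011739g0010, was at 2.44, 2.24 and 2.41 scaled TPM in Q18, at 0.866, 0.321 and 0.39 in K326, and at 0 in 2 of the KY libraries and 1 of the YOE libraries. It passed the filter only through its Q18 libraries, and it is 1 of the 13 members counted above as higher. In the opposite direction, heat shock factor Nitab4.5_0002328g0020 was at 12.0, 24.5 and 18.6 scaled TPM in Q18 against 27.9, 27.8 and 29.8 in K326 (log2 -0.66 ± 0.23, adjusted p = 0.596).

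In overexpression line YOE against KY, more members were called lower than higher. Of 200 members, 66 were called (33.0%; all genes 35.0%): 18 were higher in YOE (9.00%; all genes 17.7%) and 48 were lower (24.0%; all genes 17.3%). The median log2 change was -0.10 over the members and -0.01 over all genes. As deposited, 1 member was higher and 30 were lower of 204, where all genes had 6.76% higher and 11.5% lower, and after quantile normalization 12 were higher and 55 lower of 200, where all genes had 15.7% higher and 20.1% lower. Of the 48 lower members, 2 passed the filter only through their KY libraries. Without YOE replicate 2, 17 were higher and 33 lower, where 4655 of all 30778 genes were higher and 4411 lower. The count of members with a library left out ran from 42 without KY replicate 3 to 63 without YOE replicate 1 or 3. All genes called ran from 7499 to 11073 in such fits, against 10876 in the main test.

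Small heat shock proteins had 10 lower and 4 higher of 54 tested in YOE against KY (all genes 17.3% lower and 17.7% higher), 6 lower and 1 higher as deposited, 11 lower and 2 higher after quantile normalization, and 6 lower and 6 higher without YOE replicate 2. Nitab4.5_0000278g0020 was at 9.73, 12.6 and 12.9 scaled TPM in KY against 1.54, 0.213 and 3.93 in YOE (log2 -2.35 ± 0.40, adjusted p = 0.00129). The K326 libraries, at 2.14, 1.45 and 2.63, and the Q18 libraries, at 3.07, 2.03 and 1.5, lay in the range of YOE and below all of KY. Nitab4.5_0000604g0110 did the reverse, with 1.82, 1.65 and 1.81 scaled TPM in KY against 5.85, 4.60 and 5.71 in YOE (log2 1.21 ± 0.21, adjusted p = 0.0015), and 3.58 to 7.33 in K326 and Q18. Nitab4.5_0000288g0110, at 15.2, 25.2 and 22.8 in KY and 10.4, 1.42 and 4.31 in YOE, was also lower (log2 -2.03 ± 0.49, adjusted p = 0.00879).

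Hsp70 genes had 10 lower and 5 higher of 42 tested (all genes 17.3% and 17.7%), 7 lower and 0 higher as deposited, and 12 lower and 2 higher after quantile normalization. The most abundant copy, Nitab4.5_0009884g0020, was not called: it was at 280, 342 and 283 scaled TPM in KY and at 248, 355 and 255 in YOE (log2 -0.09 ± 0.17, adjusted p = 0.709). Less abundant copies were. Nitab4.5_0005133g0020 was at 30.5, 41.5 and 43.2 scaled TPM in KY against 13.4, 6.73 and 13.2 in YOE (log2 -1.74 ± 0.23, adjusted p = 0.00027), and Nitab4.5_0001800g0020 at 20.7, 24.4 and 26.4 against 10.5, 4.98 and 7.89 (log2 -1.54 ± 0.22, adjusted p = 0.00046). In both genes the KY libraries lay above all K326 and YOE libraries and overlapped with those of Q18.

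Hsp70 gene Nitab4.5_0006069g0030 was nearly confined to KY, at 4.08, 3.91 and 3.77 scaled TPM, with at most 0.353 in any of the 9 other libraries. It passed the filter only through its KY libraries, so no test of it is given here. Nitab4.5_0000043g0270 was at 11.4, 12.1 and 10.9 in KY, at 2.49, 4.24 and 4.80 in K326, and at 2.95, 0.95 and 1.14 in YOE (log2 -2.29 ± 0.28 for YOE minus KY, adjusted p = 0.00019). Nitab4.5_0002290g0040 was among the higher ones, with 4.86, 5.65 and 5.97 in KY against 10.3, 7.83 and 11.4 in YOE (log2 0.73 ± 0.14, adjusted p = 0.00268), a call lost as deposited (log2 0.56, adjusted p = 0.160). In this gene K326 was also called higher than KY, on both scales. An Hsp70 gene outside the naming rule, Nitab4.5_0000527g0160, spread widely in YOE, at 142, 352 and 379 scaled TPM against 154 to 157 in KY (log2 0.77 ± 0.30, adjusted p = 0.0653); it was called higher without YOE replicate 1 (adjusted p = 2.3e-04) and after quantile normalization (adjusted p = 0.0487).

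Its neighbour in the numbering, Nitab4.5_0000527g0170, encodes an Hsp20-like fold. It was at 38.2, 32.3 and 37.2 scaled TPM in KY, 26.1, 25.5 and 27.8 in K326, 26.7, 24.0 and 27.7 in Q18, and 19.8, 17.1 and 15.9 in YOE. The groups of KY and YOE lay at the 2 ends, with the K326 and Q18 libraries between them. YOE was lower than KY (log2 -0.99 ± 0.12, adjusted p = 0.00014).

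Hsp90 genes had 5 lower and 0 higher of 17 tested in YOE against KY (all genes 17.3% and 17.7%), 4 and 0 as deposited, and 7 and 0 after quantile normalization. A pair of them was high in KY alone. Nitab4.5_0012489g0020 was at 32.3, 34.9 and 39.3 scaled TPM in KY against 11.7, 5.00 and 5.46 in K326, 12.8, 10.6 and 8.79 in Q18, and 15.8, 4.63 and 8.87 in YOE. Nitab4.5_0008522g0060 was at 14.3, 14.8 and 14.7 in KY, and between 1.32 and 5.76 in the 9 other libraries. YOE was lower than KY in both (log2 -1.90 ± 0.37, adjusted p = 0.0026, and log2 -2.08 ± 0.36, adjusted p = 0.00147), and in both genes replicate 1 of K326 and of YOE was the highest library of its group. For Nitab4.5_0003130g0050 the low group was YOE: 33.1, 26.9 and 27.4 scaled TPM, against 45.1, 41.0 and 44.2 in KY and between 39.5 and 47.4 in K326 and Q18 (log2 -0.57 ± 0.11 for YOE minus KY, adjusted p = 0.00288). The most abundant copy, Nitab4.5_0006030g0020, was at 131, 123 and 122 in KY and at 112, 140 and 119 in YOE and was not called (log2 -0.03 ± 0.13, adjusted p = 0.888).

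Of the 6 Hsp90 ATPase activators, which speed the ATP cycle of Hsp90, 4 were lower in YOE than in KY and 0 higher (all genes 17.3% and 17.7%). However, 0 were called as deposited (all genes 18.3%), and 2 were lower without YOE replicate 2. Of the 4, Nitab4.5_0000105g0210 passed the filter only through its KY libraries. Proteins with a CS domain, the fold of the Hsp90 co-chaperones p23 and SGT1, had 4 lower and 3 higher of 21 (all genes 17.3% and 17.7%), and 4 lower and 0 higher as deposited (all genes 11.5% and 6.76%). Of these, Nitab4.5_0002470g0010 was at 22.6, 22.6 and 24.0 scaled TPM in KY against 13.0, 8.59 and 12.3 in YOE (log2 -0.99 ± 0.16, adjusted p = 0.00099). Nitab4.5_0008156g0020 was at 21.4, 18.5 and 19.8 against 12.9, 10.0 and 11.2 (log2 -0.76 ± 0.11, adjusted p = 0.0005). K326 was also called lower than KY in both genes, though not as deposited, and YOE minus K326 was log2 0.01 and 0.02. Chaperonin-binding proteins had 3 higher and 2 lower of 9, and ubiquilins had 0 higher and 2 lower of 6 (all genes 17.7% and 17.3%). In each class 0 were called as deposited (all genes 18.3%), and 0 ubiquilins were called without YOE replicate 2. None of the 8 Rad23 genes and none of the 3 tested binding proteins of heat shock factors was called by limma in this comparison, and 0 had an unadjusted p under 0.05.

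Heat shock factors had 10 lower and 3 higher of 31 tested in YOE against KY (all genes 17.3% and 17.7%), 8 lower and 0 higher as deposited (all genes 11.5% and 6.76%), and 11 lower and 3 higher after quantile normalization (all genes 20.1% and 15.7%). The most abundant, Nitab4.5_0000716g0250, was at 50.6, 44.7 and 45.3 scaled TPM in KY against 24.8, 21.5 and 28.4 in YOE (log2 -0.89 ± 0.12, adjusted p = 0.00035). Nitab4.5_0001508g0070 was at 28.7, 27.7 and 27.5 against 12.7, 10.9 and 10.0 (log2 -1.25 ± 0.12, adjusted p = 4e-05). Nitab4.5_0005648g0020 was at 8.02, 7.71 and 8.55 against 3.46, 3.06 and 1.71 (log2 -1.31 ± 0.17, adjusted p = 0.00026). In all 3 genes the K326 and Q18 libraries were also below every KY library, at 20.6 to 24.7, 10.6 to 15.3 and 1.58 to 2.74 scaled TPM. Nitab4.5_0002328g0020 was lower in YOE as well, at 12.4, 14.9 and 14.5 against 21.7, 35.7 and 31.3 in KY (log2 -1.01 ± 0.23, adjusted p = 0.00656), but here K326, at 27.8 to 29.8, lay within the range of KY.

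**Figure D3:**
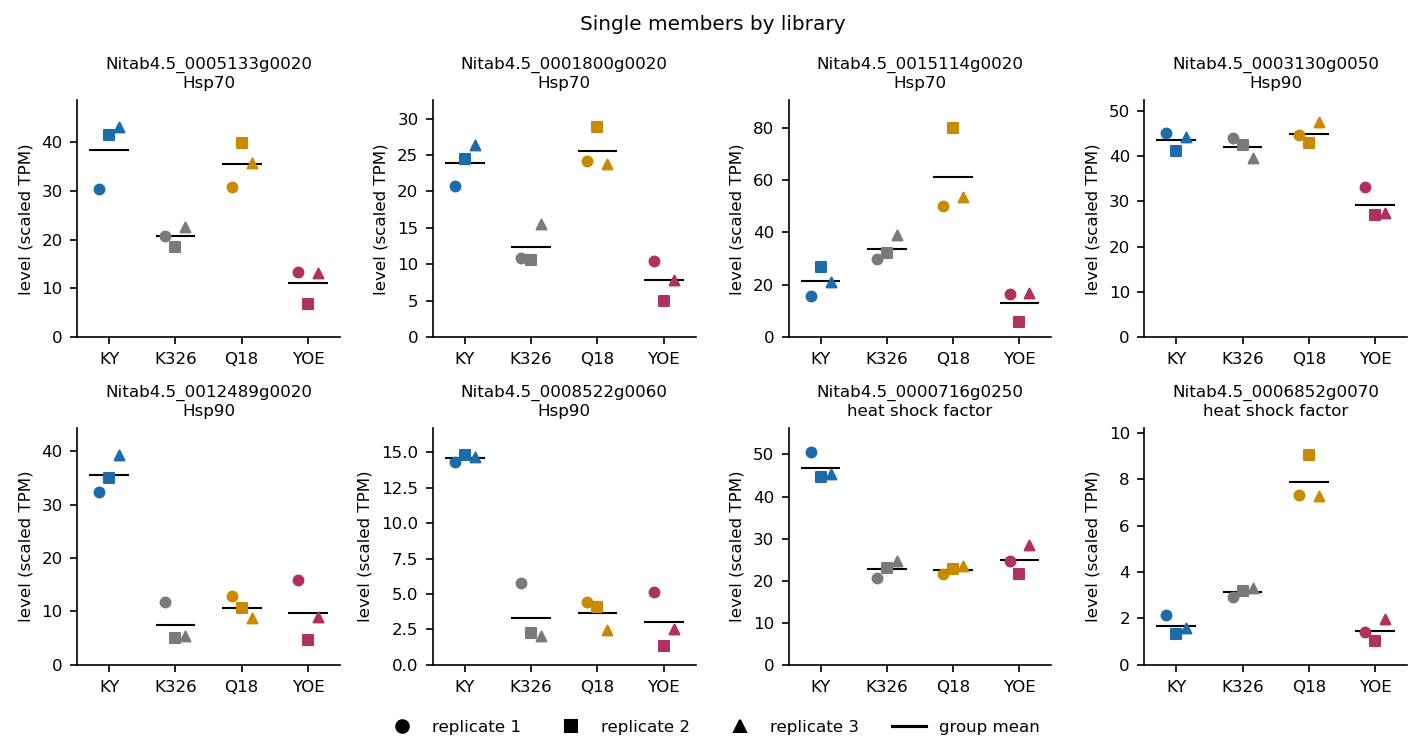
Level in scaled TPM (vertical axes, from 0, each with its own range) of 8 members in the 12 libraries, by group; points are libraries and lines group means. Nitab4.5_0012489g0020, Nitab4.5_0008522g0060 and Nitab4.5_0000716g0250 were high in KY alone, Nitab4.5_0003130g0050 was low in YOE alone, and Nitab4.5_0006852g0070 was high in Q18 alone.

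K326 against KY set the wild types against each other, with the same KY libraries as reference. In this comparison, 48 of 200 members were called (24.0%; all genes 25.2%), 20 higher (10.0%; all genes 12.3%) and 28 lower (14.0%; all genes 13.0%). Of the lower members, 1 (Nitab4.5_0006069g0030) passed the filter only through its KY libraries. As deposited the split was 39 higher and 8 lower of 204, where all genes had 24.0% higher and 2.99% lower. The count ran from 25 without KY replicate 1 or 3 to 42 without K326 replicate 3, and was 26 without K326 replicate 2. All genes called ran from 3906 to 6458 in such fits, against 7841 in the main test. Hsp70 had 8 lower and 2 higher, small heat shock proteins 7 lower and 2 higher, heat shock factors 7 lower and 6 higher, and Hsp90 4 higher and 2 lower. As deposited these became 2 lower and 7 higher, 1 lower and 6 higher, 3 lower and 6 higher, and 8 higher and 2 lower.

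Some calls held on both scales. Lower in K326 were the Hsp90 genes Nitab4.5_0012489g0020 (log2 -2.20 ± 0.37, adjusted p = 0.00188) and Nitab4.5_0008522g0060 (log2 -1.95 ± 0.36, adjusted p = 0.00356), and heat shock factor Nitab4.5_0005648g0020 (log2 -1.45 ± 0.17, adjusted p = 0.00019). Small heat shock protein Nitab4.5_0000604g0110 was higher in K326, at 6.86, 3.58 and 7.33 against 1.65 to 1.82 in KY (log2 1.28 ± 0.21, adjusted p = 0.0018). So was the chaperonin-binding protein Nitab4.5_0001707g0090, at 17.8, 16.2 and 16 against 8.33, 8.96 and 9.42 (log2 0.84 ± 0.11, adjusted p = 0.00035). Heat shock factors Nitab4.5_0000716g0250 and Nitab4.5_0001508g0070 were lower in K326 after scaling (log2 -1.01 ± 0.12, adjusted p = 0.00024, and log2 -0.97 ± 0.12, adjusted p = 0.00029) but not called as deposited (log2 -0.52, adjusted p = 0.128, and log2 -0.49, adjusted p = 0.126).

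**Figure D4:**
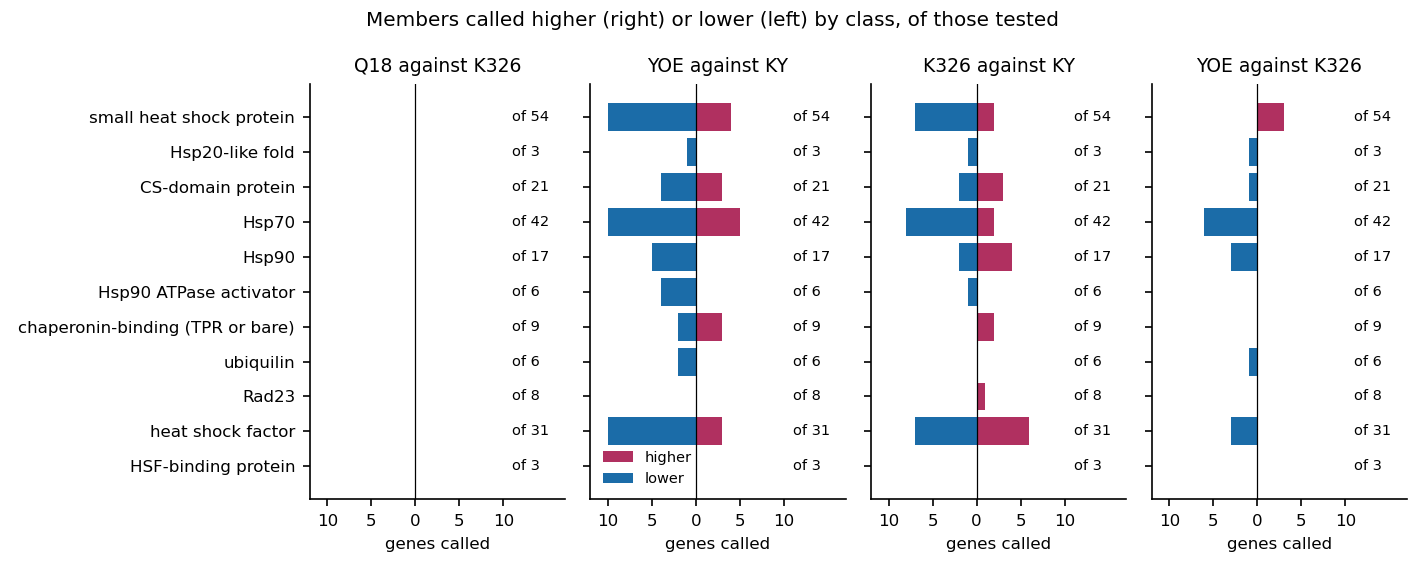
Members called higher (bars to the right) or lower (bars to the left) by limma in each comparison, by class, with the number tested at the right of each row; the horizontal axis counts genes. No member was called in Q18 against K326, and 48 of the 66 calls in YOE against KY were lower.

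Set against K326 instead, YOE showed 18 of 200 members called (9.00%; all genes 10.3%), 3 higher (1.5%; all genes 5.59%) and 15 lower (7.50%; all genes 4.73%). This count rests on single libraries: it was 0 without YOE replicate 2, 2 and 3 without K326 replicates 3 and 2, 10 without K326 replicate 1, and 29 without YOE replicate 1. The count over all genes moved too, from 868 without YOE replicate 2 to 5265 without YOE replicate 1, against 3206 in the main test. In a fit to the 6 compared libraries alone, 1 member and 179 of 29077 genes were called. As deposited, 3 members were higher and 80 lower of 204, where all genes had 1.89% higher and 36.9% lower. The 3 higher genes were small heat shock proteins, while Hsp70 had 6 lower, Hsp90 3 and heat shock factors 3, with 0 higher in each.

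Hsp70 gene Nitab4.5_0015114g0020 gave the largest of these falls, with 16.5, 5.86 and 16.8 scaled TPM in YOE against 30.0, 32.0 and 39.2 in K326 (log2 -1.42 ± 0.34, adjusted p = 0.0271). The call was lost without any 1 of the K326 libraries or YOE replicate 2 (adjusted p up to 0.0949). Hsp90 gene Nitab4.5_0003130g0050 was lower (log2 -0.52 ± 0.11, adjusted p = 0.0179), a call lost without K326 replicate 2 or YOE replicate 2 (adjusted p up to 0.0726). Small heat shock protein Nitab4.5_0005222g0020 was higher, at 6.99, 10.5 and 6.71 against 4.29, 1.97 and 2.93 (log2 1.18 ± 0.26, adjusted p = 0.0199), and lost its call without K326 replicate 2 or 3 or YOE replicate 2 (adjusted p up to 0.0803).

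Whether the lines differed from their references in different ways was tested directly, as Q18 minus K326 less YOE minus KY. These effects share no library. Of 200 members, 30 were called (15.0%; all genes 15.8%), 27 in the positive direction (13.5%; all genes 7.60%) and 3 in the negative (1.5%; all genes 8.22%), with a median of 0.18. As deposited 26 were positive and 0 negative of 204, where all genes had 6.93% and 1.86% (8.78% in all), and after quantile normalization 35 and 3, where all genes had 9.40% and 7.05%. The count was 18 without KY replicate 1 or 3 and 41 without YOE replicate 1. All genes had 2361 positive and 2553 negative of 31064 in the main test. They had 1188 and 1480 of 30749 without KY replicate 1, and 3023 and 3520 of 30857 without YOE replicate 1. The positive calls held 9 of 42 Hsp70 genes tested, 6 of 31 heat shock factors, 4 of 17 Hsp90 genes and 3 of 54 small heat shock proteins. Among the 9, Nitab4.5_0006069g0030 passed the filter only through its KY libraries. The negative calls were 2 small heat shock proteins and 1 CS-domain protein.

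Hsp70 genes Nitab4.5_0001800g0020 and Nitab4.5_0005133g0020 had the largest differences, log2 2.55 ± 0.31 (adjusted p = 0.00056) and 2.49 ± 0.32 (adjusted p = 0.00081), and both held in every alternative. The first was 1.01 higher in Q18 than in K326 and 1.54 lower in YOE than in KY on the log2 scale, and only the second of these effects was called. In both genes K326 was also called lower than KY, though not as deposited. The difference contains YOE minus KY, so a background shared with K326 cannot be told apart in it. For the Hsp90 genes Nitab4.5_0012489g0020 and Nitab4.5_0008522g0060, log2 2.45 ± 0.52 (adjusted p = 0.0107) and 2.26 ± 0.51 (adjusted p = 0.0148), K326 was also below KY, by log2 -2.20 and -1.95, beside -1.90 and -2.08 in YOE; both comparisons use the same KY libraries. Heat shock factor Nitab4.5_0006852g0070 differed by log2 1.23 ± 0.23 (adjusted p = 0.00584), with 1.10 ± 0.16 in Q18 against K326 and -0.13 ± 0.16 in YOE against KY.

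**Figure D5:**
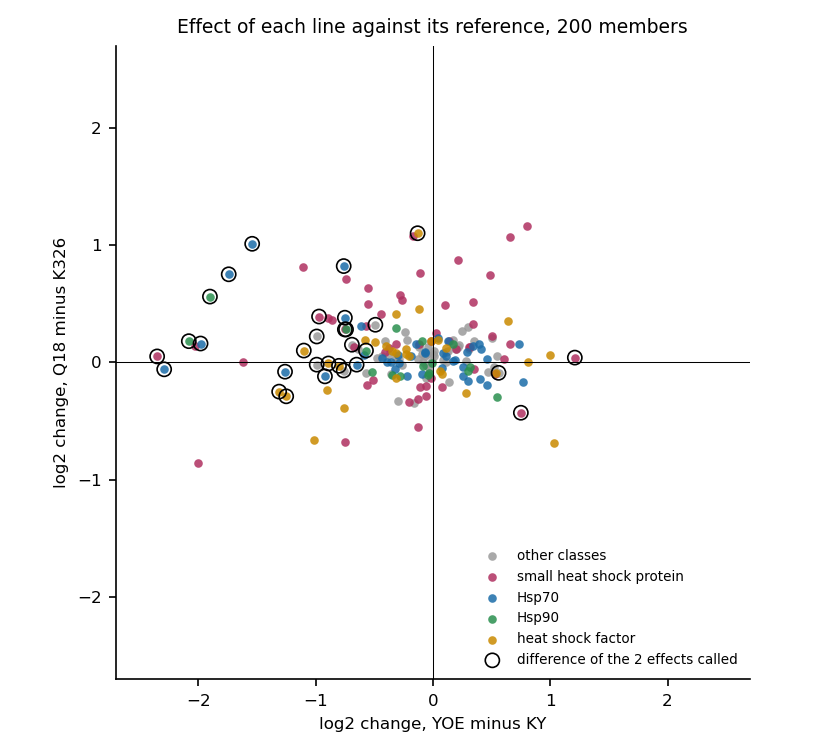
Log2 change of the 200 tested members in YOE minus KY (horizontal axis) and Q18 minus K326 (vertical axis); each point is a gene, coloured by class, and rings mark the 30 genes whose difference between these effects was called. Changes spread from -2.35 to 1.21 along the horizontal axis and from -0.86 to 1.16 along the vertical axis.

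Other parts of the folding machinery were counted from lists matched to the descriptions. In Q18 against K326, 0 genes of any list were called by limma (all genes 0.0129%). At an unadjusted p under 0.05 were 6 of 54 Clp genes, 2 of 56 chaperonins, 2 of 18 BAG proteins and 1 of 51 cyclophilins (all genes 6.77%). In YOE against KY, the Clp ATPases and proteases, which include the Hsp100 disaggregases, had 21 lower and 2 higher of 54 tested (all genes 17.3% lower and 17.7% higher), 13 and 0 as deposited, 24 and 2 after quantile normalization, and 16 and 2 without YOE replicate 2. FKBP-type isomerases had 8 lower and 2 higher of 30, cyclophilins 7 lower and 8 higher of 51, chaperonins 5 lower and 7 higher of 56, and GrpE exchange factors 2 lower and 1 higher of 8. Of the lower cyclophilins, Nitab4.5_0001150g0020 passed the filter only through its KY libraries. The 2 lower GrpE genes also name a trigger factor and an FKBP-type domain, so they are counted among the lower FKBP-type isomerases too. Prefoldin had 1 lower and 4 higher of 19, calreticulin and calnexin 1 lower and 4 higher of 10, and BAG co-chaperones 2 lower and 3 higher of 18. As deposited, these 7 lists in the same order had 6 lower and 0 higher, 6 and 3, 3 and 2, 0 and 0, 1 and 0, 1 and 1, and 1 and 3. On that scale, 11.5% of all genes were lower and 6.76% higher.

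Among these, Clp gene Nitab4.5_0019776g0010 was at 16.3, 16.2 and 17.7 scaled TPM in KY, 5.54, 5.15 and 6.30 in K326, 7.00, 6.93 and 5.66 in Q18, and 3.81, 2.19 and 2.50 in YOE (log2 -2.23 ± 0.15 for YOE minus KY, adjusted p = 2.4e-06). Calreticulin-type gene Nitab4.5_0002679g0010 was at 12.8, 16.5 and 16.2 in KY, at 0.927, 1.24 and 0.611 in YOE, and between 0.325 and 0.801 in K326 and Q18; it too passed the filter only through its KY libraries. Chaperonin gene Nitab4.5_0000106g0330 was at 2.69, 2.06 and 2.61 in KY and at 10.6, 16.3 and 17.6 in YOE (log2 2.17 ± 0.29, adjusted p = 3.4e-04), with K326 at 3.68 to 5.45 and Q18 at 3.08 to 8.98. The calls of the Clp and the chaperonin gene held in each alternative and with each library left out. In the test of the difference between the lines, 15 Clp genes were positive and 0 negative of 54 (all genes 7.60% and 8.22%), 12 and 0 as deposited (all genes 6.93% and 1.86%).

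The sums of marker lists also varied between libraries, in ways that differed by list, and their part in the results was not tested. Chlorophyll a-b binding and Rubisco small subunit genes (82 of 90 reached 1 scaled TPM in at least 3 libraries) were highest in KY, at 48265.1 to 70819.1. They summed to 32523.2 to 50210.3 in K326, 24916.3 to 51521.1 in Q18 and 35198.8 to 62882.5 in YOE, which overlaps with KY. Late embryogenesis abundant, dehydrin and oleosin genes (76 of 166 reached 1 scaled TPM in at least 3 libraries) summed to 1422.0 to 1822.6 scaled TPM in KY, 2694.8 to 3245.7 in K326, 2650.0 to 3516.1 in Q18 and 3060.7 to 3849.8 in YOE. Phloem genes (38 of 60) summed to 524.6 to 633.8 in KY, 368.3 to 420.7 in K326, 469.2 to 601.7 in Q18 and 685.2, 1370.6 and 1528.3 in the YOE libraries. Genes whose description names pollen (63 of 179) summed to 1405.0 to 1539.2 in YOE and to at most 1159.3 in any other library. Genes of dividing cells (171 of 269) summed to 2447.3 to 3340.7 in YOE, 2446.3 to 2613.6 in KY, 2286.4 to 2626.8 in K326 and 2215.5 to 2304.8 in Q18. In whole leaves, fewer cells of a type and less RNA per cell cannot be told apart.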

How the data were processed

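RNA-seq of 12 tobacco leaf libraries was used as 1 table of 69500 genes. The deposited values were taken as TPM, made with Salmon and StringTie per the submitters' processing notes; the header names no unit, and FPKM is possible. The tool versions, the aligner and the genome build: not given in the sources used here. Of the identifiers (prefix Nitab4.5), 0 were found in the RefSeq gene list, and no position or sequence is shown. TPM keeps no depth, so the read total behind a value is unknown. The members, classes, lists and comparisons were chosen with earlier results of these data known, and the finer classes were read from the descriptions.

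Each library was divided by the median, over genes detected at 1 or above in all 12 libraries, of its ratios to the mean library. Genes at 1 or more in at least 3 libraries were tested with limma 3.58.1 (R 4.3.3; trend, robust, a mean per group, all 12 libraries) on log2(scaled TPM + 1), adjusted after Benjamini-Hochberg. The fit was tested on simulated data. Named were, in each of 5 role groups, the 2 most abundant members and the 2 with the smallest p per comparison; over all members, the 5 largest called rises and falls per comparison whose groups did not overlap and whose higher mean was at least 5; and the 3 smallest p for the difference, 48 genes in all. Alcohol dehydrogenases that carry a GroES-like domain were left out of the chaperonins. Alternatives were the values as deposited, quantile normalization, a pseudocount of 0.1, no filter or a filter on a mean of 5, a fit to the compared 6 libraries alone, the replicate number as a block, and each library left out. No pair of libraries held identical values. Tables used numpy 2.4.6 and pandas 2.3.3 in Python 3.11.15, and figures matplotlib 3.10.9.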

Additional observations from a re-analysis of the deposited data

Results flagged for a closer look

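The members below are those named genes whose change in Q18 against K326 differed from their change in YOE against KY in a limma test of that difference, given as log2 with its adjusted p, positive where Q18 lay higher relative to its reference. Among Hsp70 genes these were Nitab4.5_0001800g0020 at 2.55 (adjusted p = 5.6e-04), Nitab4.5_0005133g0020 at 2.49 (8.1e-04), Nitab4.5_0000043g0270 at 2.23 (0.00499), Nitab4.5_0006069g0030 at 2.14 (given as a description), Nitab4.5_0015114g0020 at 1.58 (0.0486), Nitab4.5_0000932g0020 at 1.18 (0.00393) and Nitab4.5_0003969g0060 at 1.13 (0.0248). Among Hsp90 genes they were Nitab4.5_0012489g0020 at 2.45 (0.0107), Nitab4.5_0008522g0060 at 2.26 (0.0148) and Nitab4.5_0003130g0050 at 0.66 (0.0180). Heat shock factors Nitab4.5_0006852g0070 at 1.23 (0.00584), Nitab4.5_0005648g0020 at 1.06 (0.0151), Nitab4.5_0001508g0070 at 0.96 (0.00487) and Nitab4.5_0000716g0250 at 0.89 (0.00749) were positive too.

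Of the small heat shock proteins and related folds, Nitab4.5_0000278g0020 was at 2.40 (adjusted p = 0.0176), Nitab4.5_0000527g0170 at 0.97 (0.00378) and Nitab4.5_0000604g0110 at -1.16 (0.0250). CS-domain proteins Nitab4.5_0002470g0010 and Nitab4.5_0008156g0020 were at 1.21 (0.00638) and 0.69 (0.0152), and Nitab4.5_0000472g0280 at -0.65 (0.0207). Chaperonin-binding protein Nitab4.5_0001707g0050 was at 0.81 (0.00791). Nitab4.5_0006069g0030 aside, 20 calls are listed, and 15 of them held with each of the 12 libraries left out. Of the 15, 14 also held in each other alternative that tested the gene, although 5 of the 14 were not tested with a mean of at least 5. The exception was Nitab4.5_0008156g0020, lost as deposited (adjusted p = 0.0536). Nitab4.5_0006069g0030 passed the filter only through its KY libraries and was not tested without any 1 of them. The call of Nitab4.5_0003130g0050 was lost without KY replicate 1 or 3 (adjusted p up to 0.0520), that of Nitab4.5_0003969g0060 without any 1 of 5 libraries (up to 0.0604), and that of Nitab4.5_0015114g0020 without any 1 of 10 libraries (up to 0.105), as deposited, with no filter and with a pseudocount of 0.1. Those of Nitab4.5_0000604g0110 and Nitab4.5_0000472g0280 were lost without any 1 of 6 and 3 libraries and also as deposited, with adjusted p-values of 0.190 and 0.686. That of Nitab4.5_0000472g0280 was lost after quantile normalization as well. Apart from Nitab4.5_0001707g0050, Nitab4.5_0003130g0050, Nitab4.5_0003969g0060 and Nitab4.5_0015114g0020, the genes listed were also called in K326 against KY, with no test given for Nitab4.5_0006069g0030. In heat shock factor Nitab4.5_0006852g0070, K326 was higher than KY, and YOE was not called against KY. YOE was called lower than K326 in this gene, a call lost without K326 replicate 2 or 3 or YOE replicate 2. In the other genes called in K326 against KY, a background shared by YOE and K326 cannot be told apart in these differences.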

How the results depend on the processing

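As deposited, called members numbered 31 for YOE against KY and 83 for YOE against K326, and called genes 5721 and 12143. Mean class sums as deposited were 1779 (KY) and 3170 (Q18) TPM for small heat shock proteins; 1368, 1671, 1993 and 1219 (KY, K326, Q18, YOE) for Hsp70; 419, 576, 679 and 302 for Hsp90; and 179, 213, 257 and 124 for heat shock factors. Of the named members' log2 changes, 49 turned sign as deposited, 46 of them called on neither scale. The other 3 were Nitab4.5_0000527g0170 and Nitab4.5_0007274g0010 in K326 against KY (0.06 and 0.10, called only after scaling) and Nitab4.5_0004482g0020 in YOE against K326 (-0.55, called only as deposited). With a mean of at least 5, called genes numbered 6240 (YOE against KY), 4625 (K326 against KY) and 1983 (YOE against K326), and called members 31 (K326 against KY). With the 6 compared libraries alone, YOE against K326 gave 1 member and 179 genes. For Q18 against K326, 0 genes were called with quantile normalization, a pseudocount of 0.1 or the block. The cause of these shifts was not tested, except that a higher mean leaves fewer genes to test.

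With a library left out, called genes ran from 3906 to 6458 (K326 against KY), 0 to 8 (Q18 against K326), 868 to 5265 (YOE against K326) and 7499 to 11073 (YOE against KY). Called members ran from 25 to 42, 0 to 0, 0 to 29 and 42 to 63, and from 18 to 41 for the difference. Of named members called in the main test, 26 of 32 (YOE against KY), 14 of 25 (K326 against KY) and 0 of 12 (YOE against K326) kept the call with each library left out; 1 more in each of the first pair, Nitab4.5_0006069g0030, was not tested without a KY library.

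Replicate numbers did not pair the samples: same-numbered deviations correlated at -0.216 to 0.336, and at most 2 of 3 libraries were most like their own number. With the replicate number as a block, called members were 64 (YOE against KY), 47 (K326 against KY), 13 (YOE against K326), 31 (the difference) and 0 (Q18 against K326). For the difference the block ended the call of Nitab4.5_0015114g0020 (adjusted p = 0.0711) and made 1 call, that of Nitab4.5_0001622g0050 (0.0382). Of the named calls it ended 2 in YOE against KY, 1 in K326 against KY and 1 in YOE against K326, and Hsp70 gene Nitab4.5_0000527g0160 was called higher in YOE than in KY (0.0490).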
